A study of Mus musculus with 6 samples.

Results

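Cluster 0 of the day 7 cell table is the largest group of germinal centre B cells that the authors' clustering formed among cells sorted from mouse spleen 7 days after immunisation. Its members were taken as all cells to which the deposited table gives cluster number 0, and they were 876 of the 3542 day 7 cells and of the 38651 cells in all tables. They came from both day 7 libraries, with 211 of 1012 cells in replicate 1 (20.8%, 95% Clopper-Pearson interval 18.4 to 23.5%) and 665 of 2530 cells in replicate 2 (26.3%, 24.6 to 28.0%). Cluster 0 was the largest cluster over both libraries and in replicate 2, but in replicate 1 cluster 3 was larger, with 288 cells.

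The study asked how follicular dendritic cells and IL-4 shape the germinal centre, and read single cells by droplet 5' RNA sequencing after immunisation with an NP-haptenated antigen in alum. The 2 day 7 libraries were wild type splenocytes gated as B220+ CD38- GL7hi. The other 4 libraries, taken at day 14 and gated as B220+ CD95hi GL7hi IgD-, are used below for what the cluster rule did not touch. They were 1 library of KO reverse chimaeras (irradiated Ccl19Cre/+ Il4raf/f recipients given wild type bone marrow), 1 library of control chimaeras (irradiated Il4ra+/+ recipients, also given wild type bone marrow) and 2 wild type libraries. Ccl19-driven Cre acts in lymphoid stromal cells, while the B cells of both chimaeras derive from wild type marrow. Nothing states that libraries of one group came from separate mice, so differences between them may be technical.

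In a germinal centre, B cells cycle between a dark zone, where they divide and mutate their immunoglobulin genes, and a light zone, where they meet antigen on follicular dendritic cells and compete for help from T follicular helper cells. Light zone cells carry activation molecules such as CD83 and CD86, and cells given strong help induce MYC and then return to the dark zone, which is marked by CXCR4. Cells can also leave as plasma cells or memory cells.

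Emp2, Rgcc and Akap12 were set as markers of cluster 0, and all were highest in it. Emp2 encodes a tetraspan membrane protein of the PMP22 family (mm10 chr16:10281749-10313968, minus strand). Rgcc encodes a regulator of the cell cycle (chr14:79288756-79301645, minus strand), and Akap12 a scaffold of protein kinase A also called gravin (chr10:4266380-4359470, plus strand). The promoters of Emp2 and Rgcc are shown because these genes are markers of the cluster. The windows run from 250 bases before to 50 bases after the transcription start (RefSeq, GRCm38.p6, chr16:10313919-10314218 and chr14:79301586-79301885, both on the minus strand).

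Emp2: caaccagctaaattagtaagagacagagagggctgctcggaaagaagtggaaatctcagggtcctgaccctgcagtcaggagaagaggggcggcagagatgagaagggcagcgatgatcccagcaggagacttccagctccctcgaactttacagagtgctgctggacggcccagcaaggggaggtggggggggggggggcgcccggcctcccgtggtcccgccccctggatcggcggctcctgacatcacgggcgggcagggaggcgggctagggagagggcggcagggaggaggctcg
Rgcc: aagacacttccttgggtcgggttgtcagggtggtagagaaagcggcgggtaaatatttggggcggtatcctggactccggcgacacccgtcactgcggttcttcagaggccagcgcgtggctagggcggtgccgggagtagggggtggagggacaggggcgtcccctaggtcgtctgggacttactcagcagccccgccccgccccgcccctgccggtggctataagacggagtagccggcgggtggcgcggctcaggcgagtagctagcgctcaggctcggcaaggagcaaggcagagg

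Both windows were rich in G and C (65.7% for Emp2 and 66.7% for Rgcc). Neither held an E-box of the letters CAGGTG or CACGTG, the octamer ATTTGCAT or the forkhead motif GTAAACA on either strand. Of the promoters of the 46 genes higher in cluster 0 (described later), 35 genes matched with 53 windows, and 13.2% of those windows held CAGGTG and 13.2% CACGTG. The shares over all 32851 promoter windows of the same length were 20.2% and 7.15%. These are matches of letters only.

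Levels are given as CPM, the summed molecules (unique molecular identifiers, UMIs) of a gene over all cluster 0 cells of a library, scaled to the same total in every sum, with replicate 1 before replicate 2. Since cells were clustered on these same genes, no difference between cluster 0 and other day 7 cells is a test, and none carries a p-value. A gene was called higher or lower when it reached 20 CPM on either side and its log2 ratio was at least 0.5 in the same direction in both libraries. In sums over many cells, fewer cells with a transcript and less RNA in each cannot be told apart, and intervals cover counting error only.

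The identity of cluster 0 as germinal centre B cells held in its markers. The summed level of the 15 genes of the germinal centre identity list (Bcl6, S1pr2, Rgs13 and others) was 5210 and 5113 CPM in cluster 0, against 4643 and 4576 CPM in the other cells. The 8 B cell genes summed to 22776 and 22942 CPM in cluster 0, against 25017 and 23472 CPM in the other cells. The T cell, myeloid, stromal and erythroid lists summed to less than the B cell and germinal centre lists. Of the T cell markers, Cd4, Cd8a and Icos were at 0 counts in cluster 0 in both libraries. The T cell list summed to 113 and 112 CPM in cluster 0, near the 102 and 122 CPM of the other cells. Only 1 of its genes, Lck, reached 5 CPM over all day 7 cells, with log2 ratios of 0.27 and -0.10. The erythroid list summed to 53.9 and 60.4 CPM in cluster 0, against 789 and 273 CPM. The myeloid list summed to 8.17 and 10.2 CPM in cluster 0, against 54.2 and 20.6 CPM in the other cells, and the stromal list to 1.48 and 1.23 CPM, against 2.88 and 3.63 CPM.

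Cluster 0 cells were somewhat shallower. The median cell of cluster 0 had 14529 and 17734 UMIs, against 17711 and 18430 in the other cells, and 3773 and 3992 genes, against 4100 and 4082. The median mitochondrial share was 2.75 and 2.71% in cluster 0, against 2.66 and 2.61% in the other cells. One cell barcode occurred in both day 7 libraries, and it was not in cluster 0.

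By the authors' calls of cell-cycle phase, cluster 0 was mostly G1. G1 cells made up 64.0% of it in replicate 1 (57.1 to 70.5%) and 58.9% in replicate 2 (55.1 to 62.7%), against 42.8 and 30.8% of the other cells. S phase cells were 31.3 and 25.3% of cluster 0, against 23.8 and 29.0% of the other cells. G2M cells were 4.74 and 15.8% of cluster 0, against 33.3 and 40.3% of the other cells. Cluster 0 thus held a smaller share of cells called G2M in both libraries, while its S phase share was above that of the other cells in replicate 1 and below it in replicate 2.

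The zone calls placed cluster 0 across both zones, with 57.3 and 56.1% of its cells called dark zone, against 54.6 and 58.9% of the other cells. What set it apart was the zone of its G1 cells. Of the G1 cells of cluster 0, 43.0% (34.5 to 51.8%) and 38.0% (33.2 to 43.0%) were called dark zone, against 14.0 and 11.3% of the G1 cells elsewhere. Seen from the other side, cluster 0 held 58 of the 106 G1 dark zone cells of replicate 1 (54.7%) and 149 of the 214 of replicate 2 (69.6%). It held 77 of 372 G1 light zone cells in replicate 1 (20.7%) and 243 of 752 in replicate 2 (32.3%). A high dark zone share was not particular to cluster 0. The few G1 cells of cluster 4 were mostly called dark zone, 16 against 1 called light zone in replicate 1 and 21 against 3 in replicate 2.

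**Figure D1:**
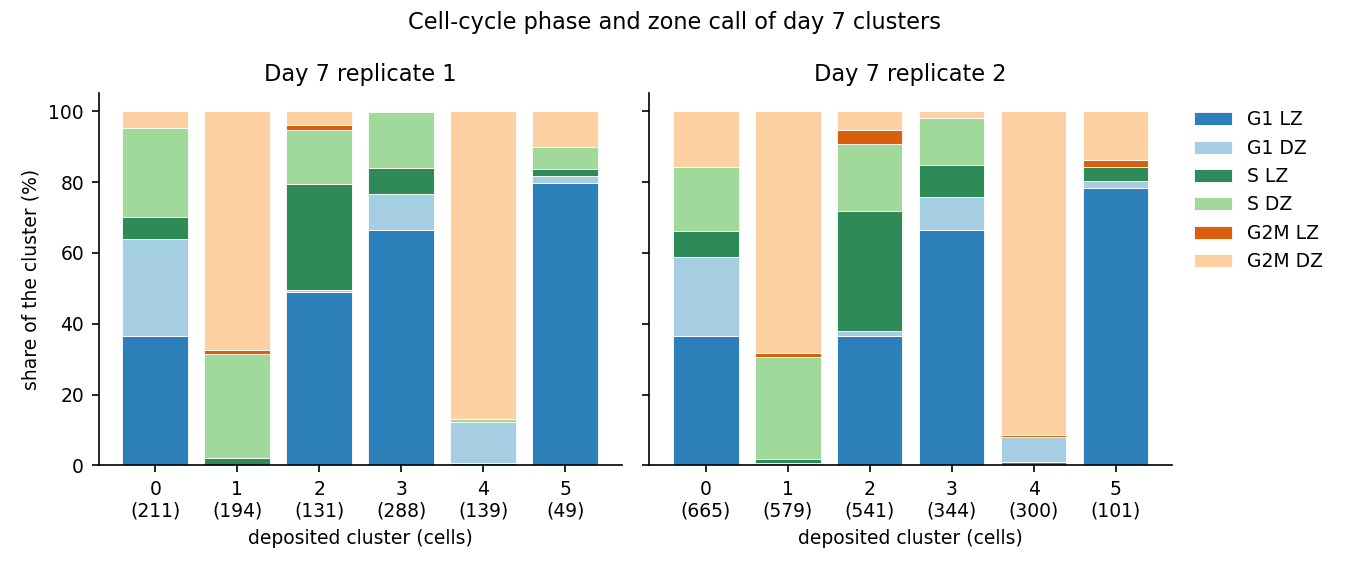
Share (%) of the cells of each deposited day 7 cluster in each cell-cycle phase (G1, S, G2M) and zone call (LZ, light zone; DZ, dark zone), with 1 panel per library and the number of cells in brackets. Cluster 0 combines a large G1 light zone part with the largest G1 dark zone part of any cluster in both libraries, while clusters 1 and 4 are mostly G2M dark zone cells and clusters 3 and 5 mostly G1 light zone cells.

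Emp2 had 43.1 and 63.4 CPM in cluster 0, against 15.8 and 22.4 CPM in all other day 7 cells (log2 ratio 1.45 and 1.5). The next highest cluster for Emp2 was cluster 4, at 24.1 and 40.6 CPM. Its lowest level, 7.68 and 4.54 CPM, was in cluster 3. Rgcc had 231 and 206 CPM in cluster 0, against 129 and 101 CPM in the other cells (0.84 and 1.03). For Rgcc too cluster 4 came next, at 192 and 179 CPM, while clusters 2 and 5 were lowest. Akap12 had 21.0 and 21.3 CPM in cluster 0, against 11.1 and 11.9 CPM in the other cells (0.92 and 0.84). The other clusters lay between 6.82 and 16.02 CPM for Akap12, so in neither library did any of them reach cluster 0.

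The markers were not present in every cell of the cluster. After thinning each cell to 7000 UMIs, 21.3% (16 to 27.5%) and 27.7% (24.3 to 31.2%) of cluster 0 cells had an Emp2 molecule. Without thinning the shares were 33.6 and 44.2%. In cluster 3, the cluster with the lowest Emp2 level, the thinned shares were 3.13 and 1.74%. An Rgcc molecule was found in 68.2 and 61.1% of thinned cluster 0 cells, and in 60.4 and 52.7% of those of cluster 4. Akap12 was found in 16.6 and 13.8% of cluster 0 cells, and in at most 9.35% of the cells of any other cluster in either library.

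**Figure D2:**
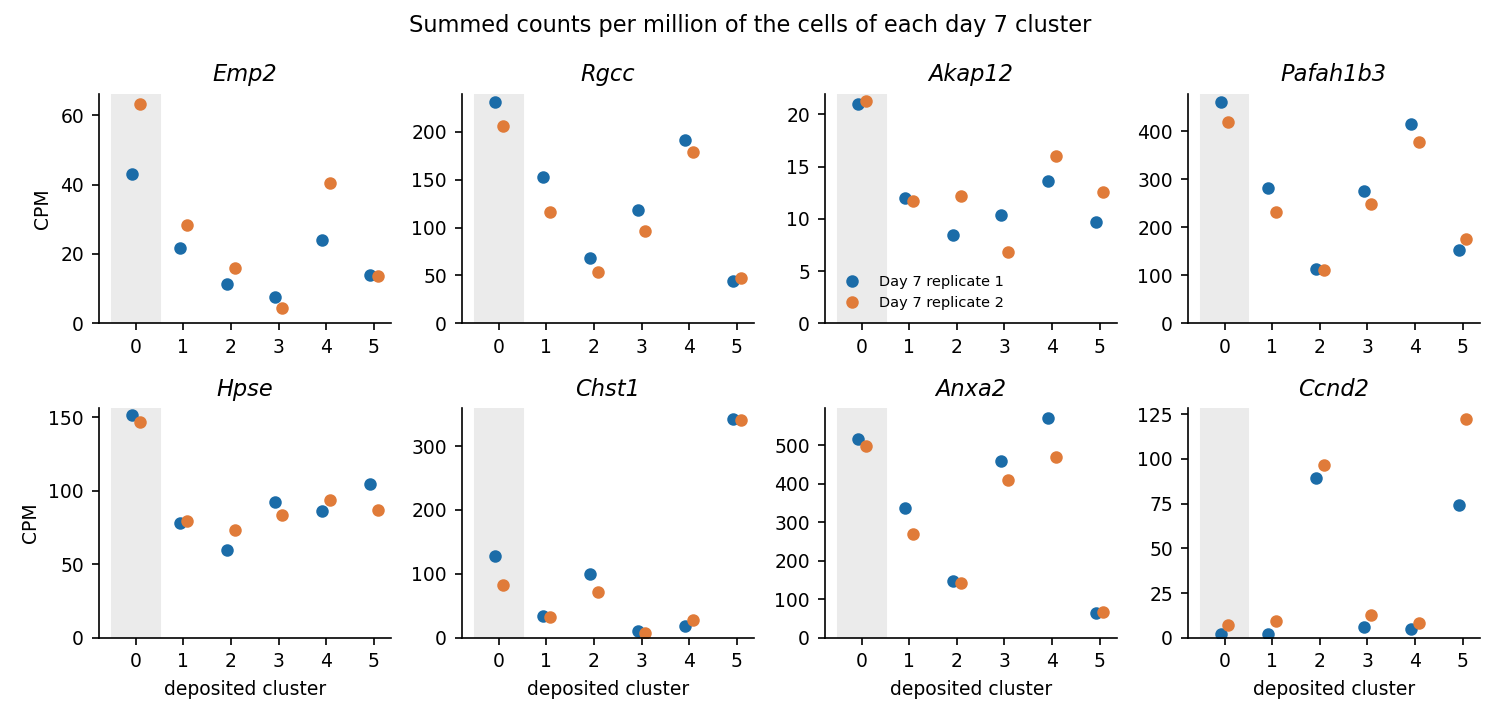
Summed level (CPM) of 8 genes in each deposited day 7 cluster, with 1 point per library and the cluster 0 column shaded. Emp2, Rgcc, Akap12, Pafah1b3 and Hpse are highest in cluster 0 in both libraries, Chst1 is higher in cluster 5, Anxa2 is higher in cluster 4 in replicate 1 only, and Ccnd2 is near 0 in cluster 0 and high in clusters 2 and 5.

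Against all other day 7 cells, 46 of 5525 genes were called higher in cluster 0 (0.833%) and 247 lower (4.47%). The higher genes were few and modest in size, and 32 of the 46 had their highest level of all clusters in cluster 0 in both libraries. Myzap, which encodes a junction protein first described in heart muscle, had 29.7 and 24.3 CPM in cluster 0, against 9.57 and 10.0 CPM in the other cells (1.63 and 1.28). Hpse, the gene of heparanase, an enzyme that cuts heparan sulfate, had 152 and 147 CPM in cluster 0, against 82.3 and 81.0 CPM (0.88 and 0.86). Pafah1b3, a catalytic subunit of the brain type acetylhydrolase of platelet-activating factor, was among the most abundant of them, with 461 and 420 CPM in cluster 0, against 269 and 218 CPM (0.78 and 0.94).

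Several genes at lower levels than Hpse and Pafah1b3 also differed in both libraries. Usp28, which encodes a deubiquitinase, had 28.0 and 27.2 CPM in cluster 0, against 14.5 and 15.0 CPM in the other cells. Nf2, the gene of the tumour suppressor merlin, had 53.7 and 44.4 CPM in cluster 0, against 27.7 and 27.8 CPM. Rsph1, a radial spoke protein gene, had 21.5 and 20.3 CPM in cluster 0, against 10.0 and 10.7 CPM. In each of these genes the higher of the other cells' 2 values was below the lower value of cluster 0. Chst1, a sulfotransferase gene, was less even, with 128 and 83.0 CPM in cluster 0, against 53.4 and 54.4 CPM (1.26 and 0.61). Bcl2l11, which encodes the pro-apoptotic protein BIM, was the only one of 13 apoptosis regulators measured to be called, with 60.9 and 46.4 CPM in cluster 0, against 38.8 and 29.99 CPM (0.65 and 0.63).

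**Figure D3:**
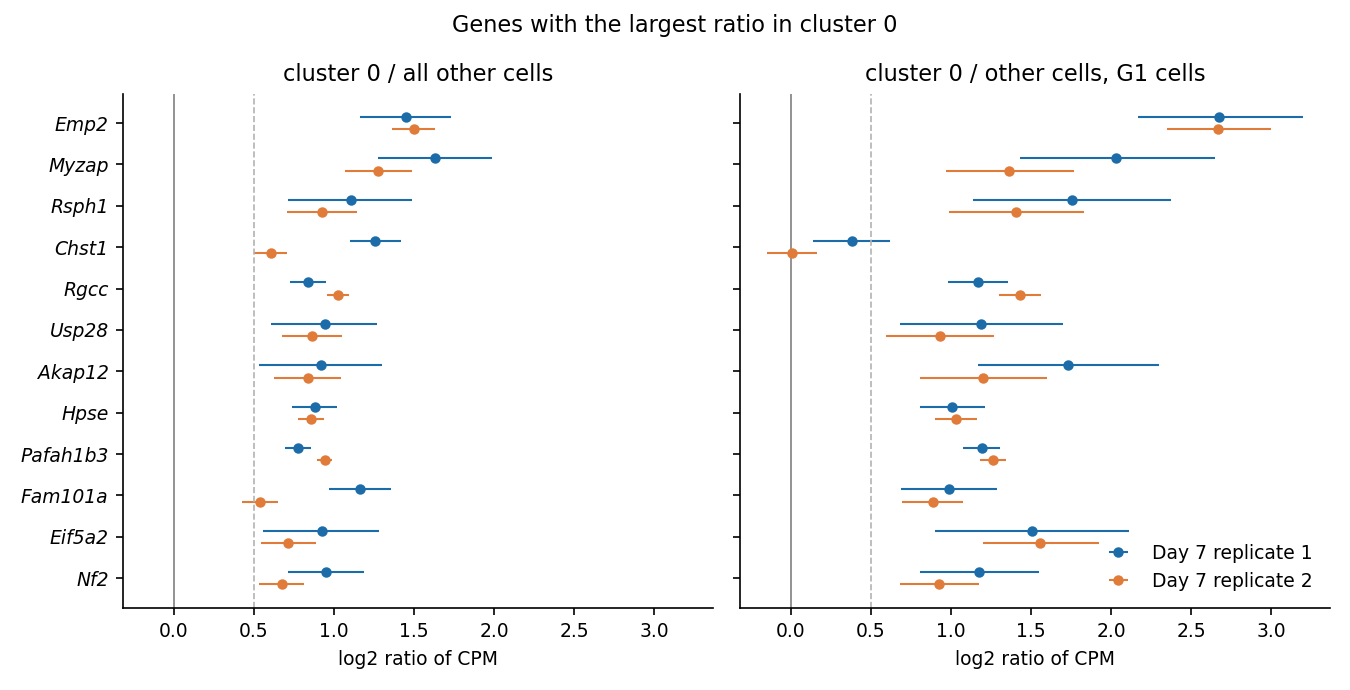
Log2 ratio of CPM, cluster 0 over the other day 7 cells, for the 12 genes with the largest mean ratio, with 1 point per library, bars giving the 95% counting interval and the dashed line marking 0.5. The left panel sets all cells against all cells and the right panel G1 cells against G1 cells. The Emp2 ratio grew to 2.67 in both libraries among G1 cells, while Chst1 fell below the dashed line there.

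Many of the genes lower in cluster 0 belong to cell division. Of the 247 genes, 42 were histone genes, such as Hist1h3b with 18.3 and 22.3 CPM in cluster 0, against 95.3 and 112 CPM in the other cells. In the G2/M list 16 of 18 genes were called lower and the list's median log2 ratio was -1.46 and -1.31, against -0.012 and -0.018 over the 8439 genes measured at 5 CPM. Plk1, a mitotic kinase gene, had 19.3 and 34.0 CPM in cluster 0, against 102 and 117 CPM. The 16 genes of the G1/S list showed no call, and their medians were 0.32 and 0.13. These values stand beside the lower G2M share of cluster 0, and which part of the gene differences that share accounts for was not tested.

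Some of the largest differences rested on few cells elsewhere. Hbb-bs and Hba-a1, both globin genes, were at 1.732 and 1.501 CPM and at 0 and 0.0682 CPM in cluster 0, against 341 and 126 CPM and 234 and 23.5 CPM in the other cells. One cell in cluster 3 of each library held 9716 of the 9737 molecules of 3 globin genes there in replicate 1, and 6235 of 6242 in replicate 2. Without these 2 cells Hbb-bs was at 1.732 and 1.501 CPM in cluster 0, against 2.33 and 1.17 CPM, and the count of lower genes was 244. Prg2, a granule protein gene, had 3.22 and 6.41 CPM in cluster 0, against 70.1 and 50.1 CPM. Leaving out cluster 5, the smallest, brought the other cells to 6.77 and 11.4 CPM, under the 20 CPM minimum, so the Prg2 call ended. The same setting ended the call of Slpi, a protease inhibitor gene, which had 76.5 and 114 CPM in cluster 0, against 97.6 and 157 CPM once cluster 5 was out and 489 and 683 CPM with it. Ccnd2, the gene of cyclin D2, kept its call, with 2.23 and 7.09 CPM in cluster 0, against 20.1 and 37.9 CPM without cluster 5. That difference came from cluster 2, at 89.4 and 96.3 CPM, since clusters 1, 3 and 4 were also low in Ccnd2, between 2.40 and 12.9 CPM.

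Among cells called G1 alone, 150 of 5492 genes were called higher in cluster 0 (2.73%) and 255 lower (4.64%). Of the 46 genes higher over all cells, 41 were also called higher here (89.1%), and they made up 27.3% of the 150. The lower genes overlapped less. Of the 247 lower over all cells, 72 were lower among G1 cells (29.1%, or 28.2% of the 255), and 7 were called higher. Emp2 led the higher genes with 54.9 and 66.1 CPM in cluster 0 G1 cells, against 8.61 and 10.4 CPM in other G1 cells (2.67 in both libraries). Akap12 had 30.4 and 21.2 CPM, against 9.16 and 9.23 CPM (1.73 and 1.2), and Rgcc 215 and 205 CPM, against 95.2 and 76.3 CPM (1.17 and 1.43). The Anxa2 gene, which encodes a calcium-dependent membrane-binding protein, passed the threshold here with 603 and 587 CPM in cluster 0, against 353 and 282 CPM (0.77 and 1.06).

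Emp2 and Rgcc had higher levels in G1 cells of cluster 0 than in other G1 cells within both zones. Akap12 is not given by zone here. In G1 light zone cells Emp2 had 53.0 and 59.99 CPM in cluster 0, against 8.76 and 8.17 CPM in other cells. In G1 dark zone cells it had 57.0 and 73.3 CPM in cluster 0, against 7.85 and 27.2 CPM in the 48 and 65 such cells elsewhere. Rgcc was nearer between the groups in the dark zone, with 268 and 238 CPM in cluster 0, against 189 and 186 CPM, than in the light zone, with 167 and 178 CPM in cluster 0, against 77.0 and 61.7 CPM. Giving the other cells the phase and zone shares of cluster 0 left 45 genes higher and 173 lower.

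Germinal centre identity and dark zone genes ran higher in G1 cells of cluster 0. As the measure for this and the lists below, 3023 of all 8439 measured genes were above the other G1 cells in both libraries. Another 2928 were below in both, and 150 were called higher and 255 lower. In the identity list 12 of 15 genes were above the other cells in both libraries and 4 were called higher, with medians of 0.33 and 0.37, against 0.0032 and 0.0036 over all measured genes. Gcsam, which encodes a signalling adaptor of germinal centre B cells, had 407 and 434 CPM in cluster 0, against 203 and 166 CPM (1.002 and 1.38). Rgs13, the gene of a regulator of G protein signalling that limits chemokine responses, had 386 and 426 CPM, against 137 and 244 CPM (1.49 and 0.80). Bcl6, the repressor that defines these cells, had 108 and 83.7 CPM in cluster 0, against 76.7 and 64.9 CPM, and was not called. In the dark zone list 8 of 9 measured genes were above in both libraries and 3 were called. Cxcr4 had 102 and 73.2 CPM in cluster 0, against 58.2 and 31.7 CPM (0.81 and 1.21).

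Although called G1, these cells carried more transcripts of dividing cells than other G1 cells did. Of the 18 G2/M genes, 12 were above the other G1 cells in both libraries and 6 were called higher, with medians of 0.42 and 0.74. Mki67, the Ki-67 gene, had 194 and 196 CPM in cluster 0, against 117 and 121 CPM (0.72 and 0.70). Ccnb2, a mitotic cyclin gene, had 171 and 176 CPM, against 83.0 and 84.6 CPM (1.04 and 1.06). Direction in this list therefore differed between the comparison over all cells, where 16 of the 18 were lower, and the one among G1 cells.

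Genes of light zone activation and of MYC-driven growth ran lower in G1 cells of cluster 0. In the light zone list 13 of the 14 genes measured, out of 16, were below in both libraries and 8 were called lower, with medians of -0.72 and -0.71. Cd83 had 192 and 202 CPM in cluster 0, against 340 and 365 CPM (-0.82 and -0.85). Bcl2a1b, a survival gene of the BCL2 family, had 34.9 and 44.1 CPM in cluster 0, against 110 and 122 CPM (-1.65 and -1.46). Myc itself had 21.0 and 30.5 CPM, against 72.7 and 96.2 CPM (-1.79 and -1.66). In the list of MYC-driven growth genes 14 of 16 were below in both libraries, yet only Myc and Srm, the spermidine synthase gene, were called. Within all of cluster 0, cells called light zone were above those called dark zone in the light zone list by medians of 0.73 and 0.71. G1 cells of cluster 0 were more often called dark zone than other G1 cells. How far that share accounts for the list differences among G1 cells was not tested.

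The IL-4 response list leaned the same way, with 12 of 14 measured genes below in both libraries, 5 called lower, and medians of -0.69 and -0.55. Il4ra, the IL-4 receptor chain, had 64.9 and 57.8 CPM in cluster 0 G1 cells, against 116 and 94.6 CPM in the others (-0.84 and -0.71). Il4i1, an IL-4-induced amino acid oxidase gene, had 93.3 and 87.7 CPM, against 208 and 238 CPM (-1.16 and -1.44). Fcer2a, the gene of CD23, had 36.9 and 51.7 CPM, against 188 and 180 CPM (-2.35 and -1.80). The other 2 lower genes, Xbp1 and Batf, also stand in the plasma cell list and the light zone list. Of the cytokine receptors, 11 of 12 measured were below and 5 were called lower. All 9 class II antigen presentation genes were below in both libraries by medians of -0.27 and -0.29, and none reached the threshold.

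Plasma cell genes were lower too, but this rested on cluster 5, which is mostly G1 cells. All 10 measured genes of the 13 listed were below and 8 were called lower, with medians of -1.70 and -1.81. Irf4 had 5.49 and 4.44 CPM in cluster 0, against 38.6 and 45.5 CPM, and Prdm1 4.49 and 5.02 CPM, against 27.7 and 26.8 CPM. Both encode regulators of plasma cell formation. Jchain, which joins secreted antibodies, had 1222 and 1373 CPM in cluster 0, against 3764 and 4403 CPM. Without cluster 5 none of the 10 was called lower and 1 was called higher, with medians of 0.059 and -0.085. Over all genes 174 were then lower, of which 129 were among the 255. The light zone list kept 8 lower genes without cluster 5 (medians -0.71 and -0.74), the MYC-driven growth list had 3 (-0.39 and -0.65), and the IL-4 response list had 4, with medians nearer to 0 (-0.35 and -0.31). Energy metabolism showed no call, either in the 15 oxidative phosphorylation genes or in the 14 of glycolysis.

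**Figure D4:**
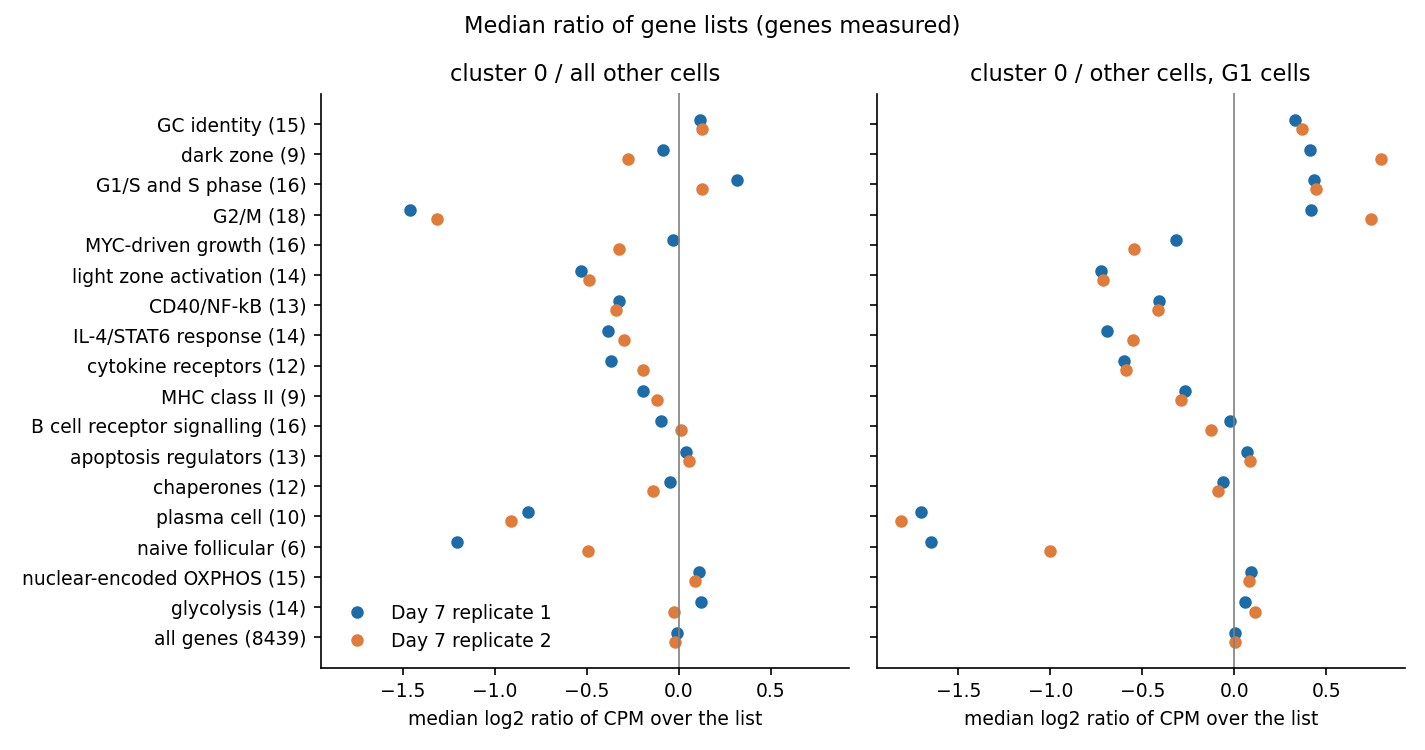
Median log2 ratio of CPM, cluster 0 over the other day 7 cells, for 17 gene lists and for all measured genes, with 1 point per library and the number of genes measured at 5 CPM in brackets. The left panel holds all cells and the right panel G1 cells. The G2/M median is -1.46 and -1.31 over all cells and 0.42 and 0.74 among G1 cells, while the light zone activation, IL-4 response and plasma cell medians are below 0 in both panels. Without cluster 5 the plasma cell medians among G1 cells were 0.059 and -0.085.

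By the pattern of gene levels the nearest clusters were 3, 1 and 2, with a mean Spearman rho across genes of 0.20, 0.13 and 0.11 on centred log2(CPM + 1) values. Cluster 5 was farthest at -0.47. Cluster 4 had a rho of -0.0055 in replicate 1, but 0.157 in replicate 2, where clusters 1 and 2 had 0.143 and 0.122. Each of clusters 3, 1 and 2 differed from cluster 0 in its own set of genes, and all 3 markers were called higher in cluster 0 against each of these 3. Cluster 4, which came next to cluster 0 in Emp2 and Rgcc, was not compared by calls.

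Against cluster 3, which like cluster 0 is mostly G1, 223 of 5508 genes were higher in cluster 0 (4.05%) and 337 lower (6.12%). Chst1 had 128 and 83.0 CPM in cluster 0, against 10.8 and 8.04 CPM in cluster 3 (3.56 and 3.37), and Emp2 had 43.1 and 63.4 CPM, against 7.68 and 4.54 CPM (2.49 and 3.8). Fam101a, which encodes the actin-organising protein refilin A, had 83.4 and 68.8 CPM in cluster 0, against 9.35 and 6.64 CPM. In the G2/M list 12 of 18 genes and in the dark zone list 5 of 9 were higher in cluster 0. Klf2, a transcription factor gene tied to quiescence and recirculation, had 4.21 and 8.87 CPM in cluster 0, against 41.7 and 114 CPM in cluster 3 (-3.31 and -3.68). All 6 measured genes of the naive follicular list, out of 9, were lower in cluster 0 than in cluster 3, as were 6 of 12 cytokine receptors and 5 of 16 genes of B cell receptor signalling. MYC-driven growth genes stood the other way from the comparison with all other G1 cells, with 15 of 16 above cluster 3 in both libraries, 2 called higher and medians of 0.43 and 0.38. Over all 8439 measured genes, 3413 were above cluster 3 in both libraries. Myc had 46.8 and 42.9 CPM in cluster 0, against 28.9 and 31.3 CPM in cluster 3. Of the plasma cell list 6 of 10 genes were above cluster 3 in both libraries and none was called.

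Against cluster 1, which is mostly G2M, 148 of 5547 genes were higher in cluster 0 (2.67%) and 404 lower (7.28%). In the G2/M list 17 of 18 genes were lower in cluster 0, and Mki67 had 320 and 340 CPM in cluster 0, against 1014 and 953 CPM in cluster 1. Ung, the gene of the uracil glycosylase of base excision repair, had 75.0 and 75.7 CPM in cluster 0, against 33.2 and 27.0 CPM (1.18 and 1.49). Emp2 had 43.1 and 63.4 CPM in cluster 0, against 21.6 and 28.3 CPM in cluster 1 (0.99 and 1.16).

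Against cluster 2, 361 of 5578 genes were higher in cluster 0 (6.47%) and 504 lower (9.04%). Among the lower genes were 14 of 16 MYC-driven growth genes, 9 of 13 CD40 and NF-kB genes and 8 of 14 light zone genes. Myc had 46.8 and 42.9 CPM in cluster 0, against 188 and 144 CPM in cluster 2 (-2.00 and -1.75), Batf 27.2 and 30.8 CPM, against 164 and 124 CPM, and Cd40 53.7 and 66.9 CPM, against 164 and 136 CPM. In the other direction Pafah1b3 had 461 and 420 CPM in cluster 0, against 114 and 111 CPM (2.02 and 1.92), and Cxcr4 85.6 and 64.7 CPM, against 27.6 and 24.1 CPM (1.64 and 1.42). Ackr4, the gene of a scavenging receptor for chemokines, had 25.7 and 26.3 CPM in cluster 0, against 5.65 and 7.63 CPM.

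Within cluster 0 itself, cells called light zone and cells called dark zone differed in 179 higher genes (3.28% of 5464) and 213 lower ones (3.9%), taken as light zone over dark zone. The zone calls come from the same transcripts, so this too is a description. Cd83 had 297 and 272 CPM in light zone cells, against 103 and 112 CPM in dark zone cells (1.53 and 1.28). Il4i1 had 148 and 121 CPM in light zone cells, against 19.6 and 39.9 CPM, and the class II gene H2-Aa 3325 and 3527 CPM, against 2020 and 2376 CPM. In the G2/M list 17 of 18 genes were lower in light zone cells, and 8 of 14 light zone genes were higher. None of the 3 markers was called. Emp2 had 44.0 and 52.8 CPM in light zone cells, against 42.6 and 68.7 CPM in dark zone cells, and Akap12 29.8 and 15.8 CPM, against 16.7 and 24.1 CPM, so its direction differed between the libraries. Pafah1b3 was level, with 437 and 418 CPM in light zone cells, against 473 and 421 CPM in dark zone cells.

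Whether the genes of cluster 0 go together with its markers in cells that played no part in the clustering of day 7 was tested in the 4 later libraries. Their G1 cells with at least 2000 UMIs were thinned to 2000 UMIs each. This left out 144 of 2870 G1 cells in the KO and 236 of 3588 in the control library. At day 14 it left out more, 1301 of 3849 and 1753 of 4386. The cells kept were split into those with at least 1 molecule of Emp2, Rgcc or Akap12 and those with none. The counts of each side were summed per library. Marker-positive cells were 556 of 2726 in the KO chimaera library (20.4%), 578 of 3352 in the control chimaera library (17.2%), and 492 of 2548 (19.3%) and 566 of 2633 (21.5%) in the wild type day 14 libraries. With 1 library of each chimaera, the share in KO and in control has no replicate check. With Emp2 or Akap12 as the markers, 163 KO, 126 control, and 262 and 316 day 14 cells were positive. In the chimaeras most marker-positive cells thus had Rgcc and neither other marker. Emp2 alone marked 79 KO, 52 control, and 39 and 79 day 14 cells. The positive and negative cells had similar depth before thinning, with medians of 5145 and 5374.5 UMIs in the KO library and 3637 and 3674 UMIs in the first day 14 library.

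Marker-positive cells were also more often called dark zone. The share was 35.8% of positive and 18.5% of negative G1 cells in the KO library, 32.0 and 15.8% in the control library, 44.5 and 27.0% in the first day 14 library, and 45.6 and 26.9% in the second. Genes that differ between the zones can therefore differ between these cells, and values within light zone cells are given below.

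The 3 markers were removed and the library was taken as a block. edgeR's quasi-likelihood test with Benjamini-Hochberg adjustment then called 159 of 9884 genes higher in marker-positive cells (1.61%) and 228 lower (2.31%). Of 177 immunoglobulin genes tested, 11 were called higher and 45 lower (25.4%). The smallest p-value was that of the immunoglobulin gene Igkv3-7 (log2 difference -3.58, SE 0.23, edgeR adjusted p = 8.4e-07). Ly6d (-0.84), S100a10 (-1.50), Sub1 (-0.98) and H2-Aa (-0.41) were also among the 10 smallest, and lower in all 4 libraries. Of the 46 genes higher in day 7 cluster 0, 43 could be tested here, and 17 were called higher (39.5%). Their median log2 difference was 0.40, against 0.0082 over all genes tested. Higher in all 4 libraries were 26 of the 43, against 1350 of the 9884 genes tested. Of the 150 genes higher among G1 cells of cluster 0, 145 could be tested, and 53 were called higher (36.6%). The genes lower in cluster 0 gave smaller shares. Of the 253 tested from the G1 comparison, 62 were called lower (24.5%) and 1 higher, and of the 244 tested from all cells, 27 lower (11.1%) and 4 higher.

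Pafah1b3 had the clearest difference among the cluster 0 genes. It had 383, 417, 426 and 446 CPM in marker-positive cells of the KO, control, first and second day 14 libraries, against 227, 254, 242 and 269 CPM in marker-negative cells. The log2 difference was 0.73 (SE 0.06, edgeR adjusted p = 3.2e-06), and every positive value was above every negative one. Anxa2 had 372, 475, 238 and 261 CPM in positive cells, against 255, 299, 156 and 162 CPM in negative cells (0.60, SE 0.06, adjusted p = 3.4e-05), higher in each library but with levels that overlapped between libraries. Gcsam had 177, 182, 163 and 209 CPM in positive cells, against 127, 110, 93.4 and 95.3 CPM in negative cells (0.76, SE 0.10, adjusted p = 0.00026).

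In the dark zone list 4 of 9 tested genes were called higher. Cxcr4 was higher by 0.52 (SE 0.10, adjusted p = 0.0046) and Neil1, a DNA repair glycosylase gene, by 0.50 (SE 0.07, adjusted p = 0.00052), each in 4 of 4 libraries by edgeR. Cxcr4 missed the threshold without the second day 14 library (adjusted p = 0.071). Bcl2l11 was higher by 0.48 (SE 0.10, adjusted p = 0.012), and lost its call without either day 14 library (adjusted p = 0.12 and 0.076). Of other genes that led in cluster 0, Rsph1 (0.78, SE 0.19, adjusted p = 0.034) lost its call when any 1 library was left out. Myzap (0.92, SE 0.26, adjusted p = 0.067), Nf2 (0.48, SE 0.15, adjusted p = 0.11), Hpse (0.28, SE 0.09, adjusted p = 0.10) and Usp28 (0.20, SE 0.19, adjusted p = 0.69) did not pass, all by edgeR.

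In the light zone list 9 of 16 tested genes were called lower. Cd83 had 463, 248, 175 and 210 CPM in marker-positive cells of the KO, control, first and second day 14 libraries, against 662, 382, 319 and 336 CPM in marker-negative cells (-0.69, edgeR adjusted p = 8.3e-06). Il4i1 fell by 0.91 on the log2 scale (SE 0.08, adjusted p = 8.3e-06), Fcer2a by 0.84 (SE 0.08, adjusted p = 2.0e-05), Myc by 0.86 (SE 0.14, adjusted p = 0.0020) and Klf2 by 1.27 (SE 0.12, adjusted p = 1.3e-05). Of the memory-associated list 11 of 17 tested genes were called lower, and of the class II list 6 of 9. Il4ra itself did not pass (-0.10, SE 0.09, adjusted p = 0.69), although it was among the lower genes of G1 cells in day 7 cluster 0.

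The block and the zone both bear on these counts. Without the library as a block, edgeR called no gene higher or lower, and 168 genes had an unadjusted p under 0.05, against 1529 with the block. DESeq2 with the block called 84 genes higher and 91 lower. Among G1 cells called light zone, 24 genes were higher and 57 lower, and 6 of the cluster 0 genes were called higher, against 17 in all G1 cells. Myc (-0.51, adjusted p = 0.29) and Fcer2a (-0.37, adjusted p = 0.070) did not pass there by edgeR. Pafah1b3 stayed higher there by 0.66 (adjusted p = 0.0021), Anxa2 by 0.51 (adjusted p = 0.0044) and Gcsam by 0.68 (adjusted p = 0.0094), while Cd83 fell by 0.37 (adjusted p = 0.021) and Klf2 by 0.74 (adjusted p = 0.0021), all by edgeR.

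**Figure D5:**
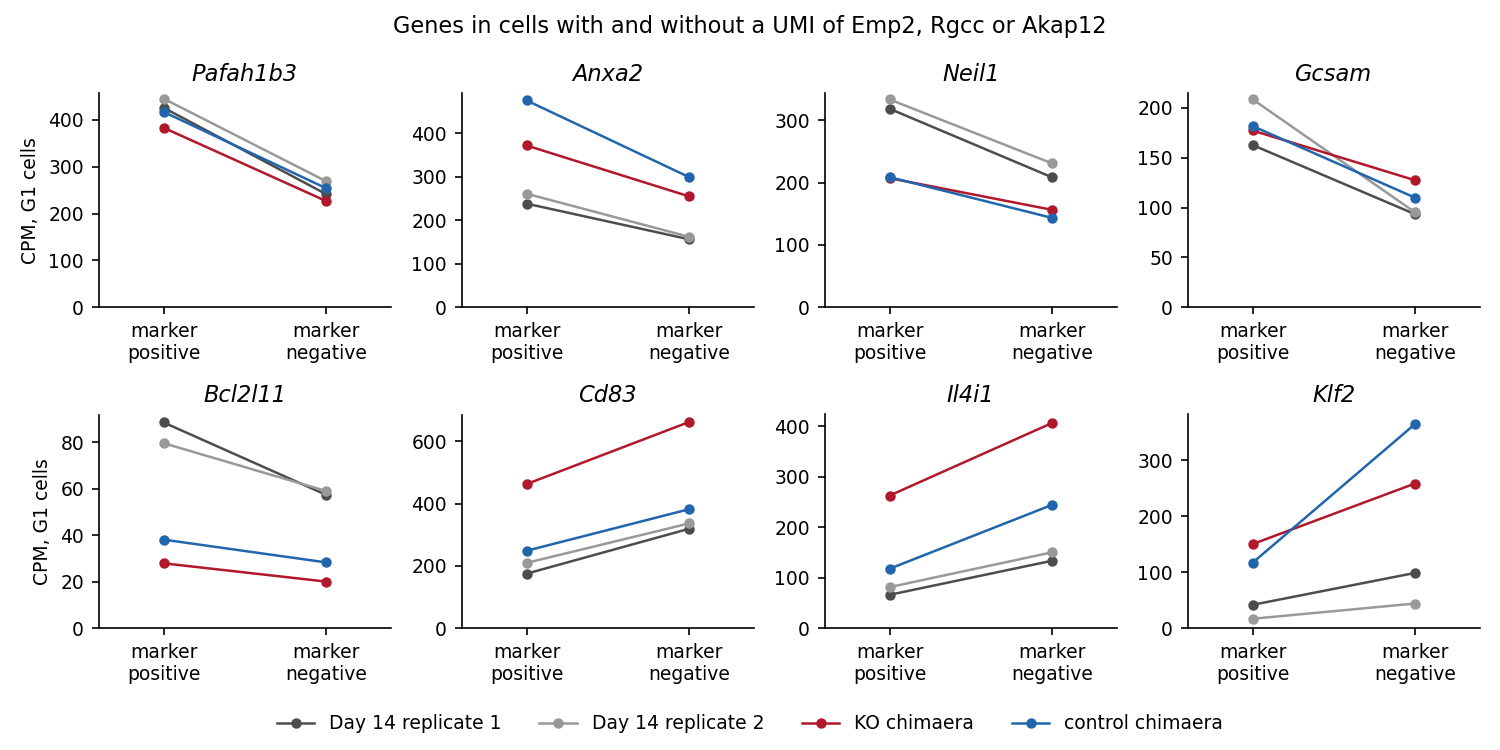
Level (CPM) of 8 genes in G1 cells with at least 1 molecule of Emp2, Rgcc or Akap12 (marker positive, left) and in G1 cells with none (marker negative, right), with lines joining the 2 sums of each of the 4 later libraries. Pafah1b3, Anxa2, Neil1, Gcsam and Bcl2l11 are higher in positive cells in all 4 libraries, and Cd83, Il4i1 and Klf2 are lower in all 4.

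The markers themselves had other overall levels in the later libraries, whose gate, depth and time all differ from those of day 7. Over all cells Emp2 had 19.0 CPM in the KO chimaera library, 13.7 CPM in the control chimaera library and 11.2 and 15.5 CPM in the day 14 libraries, against 21.2 and 33.5 CPM at day 7. Rgcc had 126 CPM in the KO library, 125 CPM in the control library and 66.2 and 64.6 CPM at day 14, against 149 and 130 CPM at day 7. Akap12 ran the other way at day 14, with 51.8 and 51.4 CPM, against 13.1 and 14.5 CPM at day 7, and had 16.7 and 12.7 CPM in the KO and control chimaera libraries. Pafah1b3 kept a narrow range over all 6 libraries, between 267 and 307 CPM.

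Among the authors' clusters of those libraries that had enough G1 cells to sum, the median log2 ratio of the 46 day 7 genes in G1 cells, each cluster over the rest, was highest in cluster 4 of the day 14 table (0.40 and 0.57, with 35 and 39 of 46 genes above the rest). In the chimaera table it was highest in cluster 5 (0.43 in the KO library with 34 of 43 genes above, and 0.70 in the control library with 40 of 44). The medians over all genes in those sums were 0.013 and 0.0055 at day 14, and 0.030 in the KO and 0.074 in the control library. Most of these G1 cells were called dark zone, with 82.9 and 89.9% of 111 and 148 cells at day 14, and 69.5% of 210 cells in the KO and 71.1% of 246 cells in the control library. Of the markers, Rgcc was highest in these clusters over all their cells, at 238 and 256 CPM in chimaera cluster 5 of the KO and control libraries and at 113 and 109 CPM in day 14 cluster 4. Emp2 was highest in chimaera cluster 5 too, at 30.2 and 29.3 CPM, but at day 14 it had 12.6 and 27.3 CPM in cluster 4. Cluster 8 had 21.8 and 28.3 CPM of Emp2, which rest on 6 and 7 molecules. In the second day 14 library Emp2 was highest in cluster 7, at 33.1 CPM from 40 molecules. Akap12 was highest in day 14 cluster 8, at 109 CPM in both libraries, against 78.6 and 71.3 CPM in cluster 4. In the chimaeras it was highest in cluster 4 of the KO library (26.1 CPM, against 22.2 CPM in cluster 5) and in cluster 5 of the control library (18.2 CPM). Chimaera cluster 1 came close to cluster 5 in G1 cells of the KO library, with a median of 0.39 for the 46 genes and 36 of 43 above. The median over all genes there was 0.071, and 40% of its 245 G1 cells were called dark zone. For the 150 genes higher among G1 cells of day 7 cluster 0, the KO median was 0.45 in cluster 1 and 0.40 in cluster 5. In the control library that median was 0.47 in cluster 1 and 0.67 in cluster 5. G1 cells were 12.2 and 13.7% of day 14 cluster 4. Over all its cells the median for the 46 genes was 0.057 and 0.21, and it was not the highest. Cluster 8 had 0.53 and 0.37 from 105 and 93 cells, with medians over all genes of 0.25 and 0.16. Cluster 7 had 0.35 in the second day 14 library. In the chimaeras cluster 5 was highest over all cells too, at 0.29 in KO and 0.41 in control. Cluster numbers come from separate clusterings and do not match between tables.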

How the data were processed

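Single-cell 5' RNA libraries of sorted mouse germinal centre B cells were analysed, 2 from day 7 and 4 from day 14. The counts deposited by the authors are UMIs per gene and cell, aligned to mm10 with Cell Ranger and clustered with Seurat per the submitters' processing notes; versions are not given in the sources used here. Clusters, phases and zone calls are the authors' own from the deposited cell tables. The day 7 table lists 27998 genes, with no immunoglobulin genes among them. The day 7 libraries held 1012 and 2530 cells with 20339933 and 54010682 UMIs, and no cell exceeded 5% mitochondrial counts (highest 4.99 and 4.98%). Depth at day 14 was lower, with medians of 3399 and 3178.5 UMIs per cell, and 7185.5 and 6676 in the KO and control chimaera libraries.

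UMI counts were summed over cells per library and group and scaled to CPM; a zero was set to a floor of 3 counts for ratios. Cluster 0 was set against all other day 7 cells, G1 cells only and the 3 most similar clusters, with 95% Clopper-Pearson intervals for shares. Marker-positive and marker-negative G1 cells of the other 4 libraries were tested with edgeR 4.0.16 (R 4.3.3; TMM, filterByExpr, quasi-likelihood test, library as block, Benjamini-Hochberg, threshold 0.05). Both sums of a library come from the same cell suspension, which is where the pairing comes from. DESeq2 1.42.0 was an alternative. Python 3.11.15, numpy 2.4.6, pandas 2.3.3, scipy 1.17.1 and matplotlib 3.10.9 did the rest. Scrublet (scanpy 1.11.5) called 3 and 0 day 7 doublets, a rate too low to have worked, so the 5% of cells with the highest scores were left out as an alternative instead.

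Named genes were drawn from the 12 with the largest mean log2 ratio per direction over all cells (8 in the other comparisons). Further sources were the genes with the 10 smallest p-values in the test and called members of the lists. Not every gene from these sources is named. Others shown for their role (Bcl6, Anxa2, Neil1, Nf2 and similar) were chosen after their values were seen. The members, markers and 31 gene lists were chosen with earlier results of these data known, so no list is independent support. Lists count genes measured at 5 CPM over all day 7 cells. On simulated data the day 7 rule recovered 99% of genes changed by log2 1 and 96% at 0.75, with 0 false calls among 5409 genes. The edgeR test recovered 62% at log2 0.5 and 100% at 1, with 16 false calls among 9884. Its changed genes were drawn only from those with high counts, so recovery of genes with low counts was not simulated. Alternatives covered scaling, CPM minimum, threshold, thinning, doublets, marker choice and each library left out. Chromosome positions are from the reference annotation of mm10.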

Additional observations from a re-analysis of the deposited data

How the results depend on the processing

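The counts of day 7 genes moved with the thresholds. The mean log2 ratio of no named day 7 gene reversed, apart from globin genes at their floor without the 2 globin-rich cells. Over all cells Hba-a1 and Hba-a2 then had means of 0.19 and 1.72, which rest on zeros set to the floor. In that setting the ratio of Hbb-bs in replicate 2 turned to 0.36. Higher and lower genes against all other cells, 46 and 247, were 107 and 419 with a minimum of 5 CPM, 399 and 802 with none, and 2 and 125 at a log2 ratio of at least 1. Among G1 cells, 150 and 255 became 300 and 524, 484 and 906, and 18 and 79 under the same settings. At a log2 ratio of 1 the counts were 64 and 85 against cluster 3, 8 and 221 against cluster 1, 62 and 104 against cluster 2, and 9 and 95 between zones. Thinning to 7000 UMIs gave 258 higher genes against cluster 1, and G1 cells only gave 105 lower between zones. With 1 library, which needs no repeat, higher genes ranged from 82 to 121 against all cells, 257 to 352 among G1 cells, 377 to 384 against cluster 3, 259 to 418 against cluster 1, 536 to 595 against cluster 2 and 269 to 778 between zones, and lower genes from 436 to 478 among G1 cells and 279 to 539 between zones. TMM scaling gave 46 and 243. Without the 5% highest doublet scores the dark zone share of cluster 0 was 55.5%, against 56.7%. Leaving out 2 globin-rich cells or cluster 5, chosen after seeing the data, left 46 and 47 higher genes. Without the 2 cells, reversal was not judged for globin genes at their floor.

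In the marker test, higher and lower genes (159 and 228), cluster 0 genes called higher (17) and those from G1 cells (53) were 0, 0, 0 and 0 without the replicate block, 84, 91, 9 and 34 with DESeq2, 511, 524, 27 and 85 unthinned, 24, 57, 6 and 11 among light zone cells, and 37, 149, 7 and 16 with Emp2 or Akap12 as markers. Emp2 alone gave 24 higher genes, 4 and 12, no low-count filter 542 lower, and leaving immunoglobulin genes out 280 higher; the last and the Emp2 or Akap12 markers were chosen after seeing the data. Leaving out 1 library gave 58 to 129 higher, 129 to 209 lower, 8 to 15 and 20 to 45, lowest without the second day 14 library (58, 129, 8 and 20). Reversed were Hbb-bs unthinned (-0.42), Ccnd2 (0.15), Ighv1-58 (-9.23), Jchain (-0.59), Mzb1 (-0.45) and Gapdh (-0.041) with Emp2 alone, Ighv1-58 (-8.66), Jchain (-0.46) and Gapdh (-0.058) with Emp2 or Akap12, and Pdia4 (0.0014) and Hsp90b1 (0.17) in light zone cells. The cause was not tested. Precision is limited by 2 day 7 libraries, by the 48 and 65 G1 dark zone cells outside cluster 0, and by thinning to 2000 UMIs. Pafah1b3, Gcsam, Cd83, Il4i1 and Klf2 kept their calls in every setting except the one without the block.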
